A study of Homo sapiens with 6 samples.

Results

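The oxidative phosphorylation system of HCCLM3 cells, an established human hepatocellular carcinoma cell line, was followed across both genomes that encode it. Protein-coding genes whose symbol starts with MT-, or whose symbol carries the NDUFA, NDUFB, NDUFC, NDUFS or NDUFV, SDHA to SDHD, UQCR, COX4 to COX8 or ATP5 stem, were taken from the deposited table. This gave 95 of the 35856 genes listed, of which 13 are mitochondrially encoded and 82 are nuclear. The symbols decide membership, so that NDUFA4, now placed in complex IV, is counted with complex I, and ATP5IF1, an inhibitor of ATP synthase and not a subunit, is counted with complex V. The labels name transfection with a vector carrying the long non-coding RNA LINC00862 or with an empty vector, and the control libraries, labelled NC, are taken here as the latter. Both groups are labelled as HCCLM3, a purchased line that the study grew in DMEM with fetal bovine serum, and RNA of 3 libraries in each group was captured by oligo(dT) beads. The labels give no age, passage or time after transfection, and nothing says that the libraries of a group came from separate cultures, so that p-values measure only the spread between these libraries.

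Oxidative phosphorylation passes electrons from NADH (complex I) and succinate (complex II) through complex III and cytochrome c to oxygen at complex IV, and complex V uses the resulting proton gradient to make ATP. Complexes I, III, IV and V mix subunits from the mitochondrial genome with many subunits imported from the cytosol, whereas complex II is wholly nuclear. Among the mitochondrial subunits are the catalytic core of complex IV, cytochrome b of complex III and the core of the membrane arm of complex I. The mitochondrial genome is read from both strands as long precursors that are cut at the tRNAs lying between the genes, and most of the released mRNAs are polyadenylated, which is how they enter an oligo(dT) library. Hepatocytes are rich in mitochondria, and many hepatocellular carcinomas shift from respiration towards glycolysis.

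The ends and overlaps of the mitochondrial genes are shown first, because they bear on how reads are captured and shared between rows. The coordinates of these 13 genes on the hg38 mitochondrial sequence were the same in the deposited table and in GENCODE 29. By these annotated ends, 6 of the 13 reading frames stop short of a full last codon, and the poly(A) tail supplies the missing bases. The last 24 bases of an incomplete frame, MT-ND1 (chrM:3307-4262, plus strand), of another, MT-CYB (chrM:14747-15887, plus strand), and of 2 complete ones, MT-CO1 (chrM:5904-7445, plus strand) and MT-ND6 (chrM:14149-14673, minus strand), are given with the final codon, or what is left of it, in capitals.
MT-ND1: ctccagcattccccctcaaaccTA
MT-CYB: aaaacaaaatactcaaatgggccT
MT-CO1: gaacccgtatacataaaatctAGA
MT-ND6: attgagattgctcgggggaatAGG

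The other incomplete frames belong to MT-ND2, MT-CO3, MT-ND3 and MT-ND4. MT-ATP6 ends on the base at which MT-CO3 starts (chrM:9207), so that its last codon counts as complete here only by its annotated end. MT-ATP8 and MT-ATP6 are carried by a single mRNA and share 46 bases (chrM:8527-8572), printed here with the start codon of MT-ATP6 in capitals.
MT-ATP8 and MT-ATP6: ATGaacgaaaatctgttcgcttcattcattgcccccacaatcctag

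MT-ND4L and MT-ND4 share 7 bases (chrM:10760-10766) on another joint mRNA. Reads in these stretches cannot be given to a particular gene, so that the separate values of MT-ATP8 and MT-ATP6, and of MT-ND4L and MT-ND4, are uncertain. Nuclear pseudogenes that copy mitochondrial genes took few reads, between 2.27% and 2.53% of the counts of the 13 genes in each library.

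The nuclear genes are set out by the promoters that the results return to below. RefSeq promoter windows (GRCh38.p14, 250 bases before to 50 after the start) were found for 67 of the 82 nuclear members. A window was searched on both strands for GCGCATGC, a form of the site of NRF1, a transcription factor known for its role in the expression of respiratory genes, for CCGGAAGT, a form of the site of GABPA, for TCAAGGTCA, a form of the site of ESRRA, and for AAGATGGCG, a form of the site of YY1. Shown are SDHD (chr11:112086623-112086922, plus strand), which held the first 3 of these motifs, and COX6A1 (chr12:120437863-120438162, plus strand), NDUFA5 (chr7:123557769-123558068, minus strand) and NDUFS6 (chr5:1801157-1801456, plus strand), members with the NRF1 motif whose mRNA rose by over 2-fold, with the window that holds the motif where RefSeq gives several. Capitals mark the motifs on either strand. In SDHD 2 matches of the palindrome-like NRF1 motif overlap. These promoters were picked by motif and rise, so that they show no link between motif and rise. UQCRC2, COX4I1 and NDUFV1 rose more than these and held none of the motifs. ATP5MC2, ATP5ME and NDUFB4 held the NRF1 motif and did not pass the test described below.
SDHD: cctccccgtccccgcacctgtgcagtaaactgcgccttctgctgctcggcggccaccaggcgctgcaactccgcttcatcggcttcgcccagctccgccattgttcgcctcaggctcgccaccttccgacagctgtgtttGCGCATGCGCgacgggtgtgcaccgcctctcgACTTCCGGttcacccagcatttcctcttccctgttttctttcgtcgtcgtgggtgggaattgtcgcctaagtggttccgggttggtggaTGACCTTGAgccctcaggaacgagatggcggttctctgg
COX6A1: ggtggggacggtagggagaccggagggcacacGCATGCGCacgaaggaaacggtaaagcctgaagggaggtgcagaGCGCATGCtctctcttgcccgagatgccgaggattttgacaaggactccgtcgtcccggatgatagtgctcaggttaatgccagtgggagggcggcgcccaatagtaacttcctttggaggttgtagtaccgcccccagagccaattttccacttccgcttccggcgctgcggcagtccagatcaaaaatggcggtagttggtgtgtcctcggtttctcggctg
NDUFA5: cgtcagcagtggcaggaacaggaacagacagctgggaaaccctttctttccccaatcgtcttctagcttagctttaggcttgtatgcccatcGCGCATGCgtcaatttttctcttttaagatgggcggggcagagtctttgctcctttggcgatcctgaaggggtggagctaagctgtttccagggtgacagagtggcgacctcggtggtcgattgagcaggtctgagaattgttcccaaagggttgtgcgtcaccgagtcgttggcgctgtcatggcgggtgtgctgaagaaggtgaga
NDUFS6: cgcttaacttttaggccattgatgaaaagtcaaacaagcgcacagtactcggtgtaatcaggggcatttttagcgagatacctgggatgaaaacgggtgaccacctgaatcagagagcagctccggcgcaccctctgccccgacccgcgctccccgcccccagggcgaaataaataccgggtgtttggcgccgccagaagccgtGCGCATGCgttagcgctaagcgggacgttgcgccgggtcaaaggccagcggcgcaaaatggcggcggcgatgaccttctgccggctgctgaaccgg

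The libraries held between 58241123 and 68229070 counts, and 20741 genes passed the filter on low counts. LINC00862 itself had 11, 21 and 6 counts in NC and 145, 121 and 76 in LINC00862. The groups stood far apart in their whole profile, with Spearman correlations across genes of 0.754 to 0.767 between groups and 0.896 to 0.909 within them. In the test described below, 34.4% of all genes tested were higher in LINC00862 and 29.8% lower. Of 10 hepatocyte markers, 9 were tested, 7 of them higher and 2 (AFP and SERPINA1) lower in LINC00862. Their summed FPKM (fragment counts corrected for length and library depth) was 3.05 to 3.60 in NC and 539 to 619 in LINC00862. ALB, the defining albumin gene, had 0, 0 and 7 counts in NC, and TTR had none there. The 7 mesenchymal, endothelial and blood markers summed to 490 to 579 FPKM in NC and 14.0 to 18.3 in LINC00862, with 1 of the 7 higher and 2, VIM and PDGFRB, lower, while 4 of 5 epithelial markers were higher and their sum went from 194 to 287 FPKM in NC to 437 to 500. Hepatocyte markers were thus low or absent in the control libraries, and the vector cannot be told apart from any other difference between the cells of the groups. Whether both groups are the same cell line was not tested, and if they were not, every fold change below would compare lines and not the vector. VIM, for example, had 164852 to 194873 counts in NC and 1305 to 1449 in LINC00862, and EPCAM had 80 to 101 and 23775 to 31485. The part of these marker shifts in the results that follow was not tested.

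The 13 mitochondrial mRNAs rose together, and the nuclear members moved in both directions. In the quasi-likelihood test of edgeR, with p-values adjusted over all genes by the Benjamini-Hochberg method, 13 of the 13 mitochondrial genes were higher in LINC00862 and none was lower, with a median log2 fold change of 1.42. All 13 fitted values were above 0, so that none was lower at an unadjusted p under 0.05 either. Of the 81 nuclear members tested, 33 were higher, 7 were lower and 41 did not pass, with a median log2 fold change of 0.39. Over all genes tested, 34.4% were higher and 29.8% lower, with a median of 0.11, so the nuclear share of rises (33 of 81) lay near this background and the share of falls (7 of 81) lay below it. The median of the mitochondrial genes exceeded that of the nuclear ones by 1.02 on the log2 scale. COX7A1, a muscle and heart isoform, had 6, 2 and 8 counts in NC and 0, 2 and 3 in LINC00862 and was not tested.

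The mitochondrial mRNAs took 7.78%, 11.2% and 7.76% of all counts in NC 1, 2 and 3 and 18.3%, 17.5% and 26.8% in LINC00862 1, 2 and 3. Their mean share was 8.92% ± 2.00 (SD, n = 3) in NC and 20.8% ± 5.17 (SD, n = 3) in LINC00862, and each LINC00862 library lay above each NC library. The 82 nuclear members took 0.833%, 1.11% and 1.24% in NC and 1.61%, 1.57% and 1.33% in LINC00862, again without overlap. The number of mitochondrial counts per nuclear member count, which does not depend on how libraries are scaled, was 9.34, 10.1 and 6.24 in NC and 11.3, 11.1 and 20.2 in LINC00862. These ratios did not overlap, but the gap between NC 2 and LINC00862 2 was small beside the spread within each group, and LINC00862 3 alone stood far above the others. The mean ratio was 1.66 times as high in LINC00862 as in NC. With 3 libraries in each group an exact two-sided permutation test cannot give a p below 0.1.

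The abundance of the mitochondrial mRNAs was reflected in the most abundant rows of each library. Among the 10 genes with the most counts, 6 were mitochondrially encoded mRNAs in each NC library, and 8, 8 and 9 in LINC00862 1, 2 and 3. In the deposited FPKM, the median of the mean values of the 13 genes was 5681 in NC and 11887 in LINC00862. For the 82 nuclear members it was 37.7 and 46.0. The ratio of these median levels was 151 in NC and 258 in LINC00862. The length behind the FPKM of each gene is not given in the sources used here. In NC 1, NDUFA10 had 5671 counts and an FPKM of 9.05, and COX5A had 5811 counts and an FPKM of 66.15. Their median transcript lengths, 776 and 575 bases, lie much closer. Ratios of FPKM between genes thus depend on lengths that could not be checked. Within complexes the ratio of medians went from 126 to 252 in complex I and from 222 to 427 in complex IV. In complex V it went from 196 to 492. In complex III, with MT-CYB as its only mitochondrial gene, it went down from 156 to 107. There the middle nuclear gene was UQCRFS1 in NC (FPKM 36.3) and UQCRQ in LINC00862 (79.7), and UQCRQ itself had 75.2 in NC. The log2 fold change of MT-CYB, 0.78, lay above the median of the nuclear genes of complex III, 0.31.

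MT-CO1 and MT-CO3, both of complex IV, had the highest FPKM of the 13 genes in each group, at 13048 and 13277 in NC and 35909 and 33132 in LINC00862. MT-CO1, the catalytic subunit of cytochrome c oxidase, had 17926, 28179 and 17978 CPM (counts in each 1000000 of the library, scaled by the trimmed mean of M values, TMM) in NC and 56376, 52883 and 91318 in LINC00862. Its groups did not overlap, and its log2 fold change was 1.65 (standard error, SE, 0.31, edgeR adjusted p = 0.00138). MT-CO2, which carries the copper centre that takes electrons from cytochrome c, stood at 6069, 9759 and 9465 CPM in NC against 17027, 16674 and 24025. MT-CO3 stood at 8068, 13790 and 11450 CPM against 27909, 24695 and 41367. For both genes the lowest LINC00862 library lay above the highest NC library, and the log2 fold changes were 1.19 and 1.50.

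The 7 mitochondrial subunits of complex I, all of its membrane arm, had a median log2 fold change of 1.06. MT-ND1, which lines the quinone channel, had 3803, 5990 and 4236 CPM in NC and 12209, 10696 and 18219 in LINC00862, with a log2 fold change of 1.55 (SE 0.27, edgeR adjusted p = 0.000945). MT-ND4, a proton-pumping subunit, had 8898, 14442 and 9923 CPM in NC and 25516, 23184 and 40354 in LINC00862. Both genes rose without overlap. MT-ND4L, MT-ND4's partner on the joint mRNA, went from 1413, 1727 and 379 CPM to 2720, 2985 and 5994. NC 3 was far below the other NC libraries for this gene, and its log2 fold change of 1.73 had the largest standard error of the 13, 0.52. MT-ND5, another pump, was likewise low in NC 3 (3638, 4518 and 1699 CPM in NC against 5423, 4877 and 10270), so that its log2 fold change of 1.06 had a standard error of 0.40. MT-ND2 and MT-ND3 had log2 fold changes of 1.00 and 0.79.

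MT-ND6 is the only protein gene read from the other strand. Its CPM was 1357, 2172 and 1647 in NC and 2868, 2174 and 4140 in LINC00862, so that NC 2 and LINC00862 2 were nearly equal. On the FPKM scale its groups overlapped, and the exact permutation test gave p = 0.2. The log2 fold change was 0.83 (SE 0.27, edgeR adjusted p = 0.0242).

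MT-CYB, the mitochondrial subunit of complex III, moved least. It had 5566, 9224 and 5878 CPM in NC and 9932, 9073 and 16409 in LINC00862, and NC 2 lay above LINC00862 2. Its log2 fold change was 0.78 (SE 0.30, edgeR adjusted p = 0.0454). It was the only one of the 13 whose groups overlapped in CPM, where the other 12 were higher in every LINC00862 library against a background of 38.4% of all genes.

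The complex V pair rose by similar amounts. MT-ATP6, the channel subunit through which protons pass, went from 5724, 9193 and 6690 CPM to 16715, 15426 and 25529, with a log2 fold change of 1.42. MT-ATP8 went from 1979, 3076 and 1280 CPM to 4914, 4852 and 8396, with a log2 fold change of 1.52. The groups did not overlap for either gene. By annotated ends, the 6 genes with an incomplete last codon and the 7 with a complete one, MT-ATP6 among them, had median log2 fold changes of 1.21 and 1.42.

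**Figure D1:**
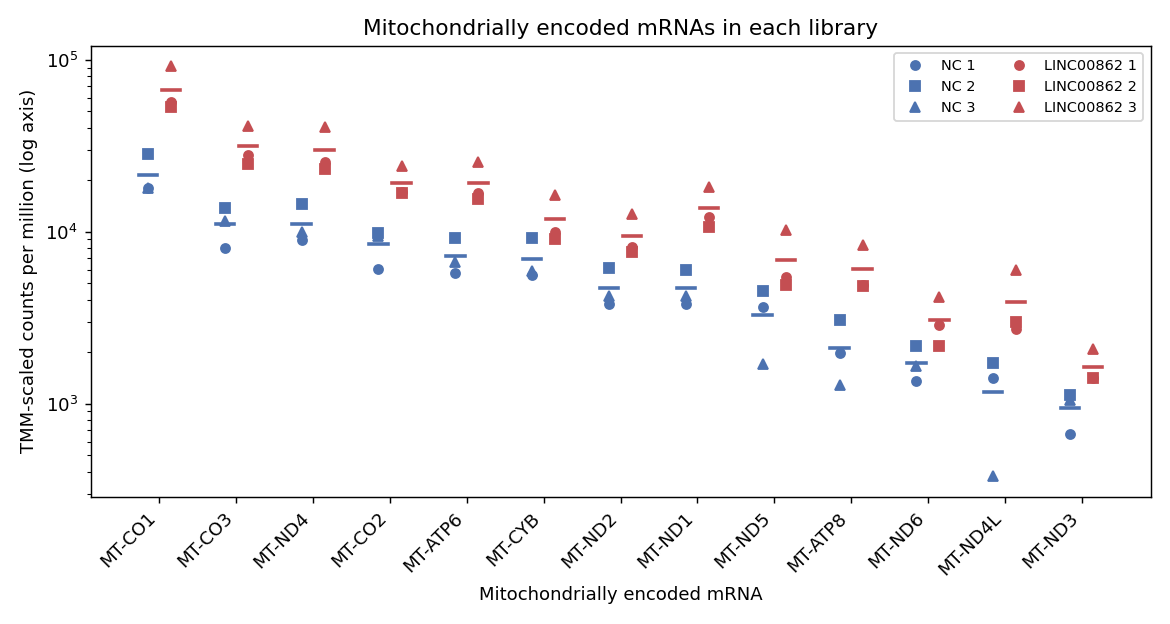
Level of each mitochondrially encoded mRNA in each library, in TMM-scaled CPM on a log axis. Blue is NC, red is LINC00862, marker shapes are replicates 1 to 3 and lines are group means. NC 2 is the highest NC library and LINC00862 3 the highest LINC00862 library for each of the 13 genes.

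The 13 genes moved together within a group as well. NC 2 was the highest NC library for all 13 and LINC00862 3 the highest of its group for all 13, while NC 1 was the lowest NC library for 10 of them. Without LINC00862 3, the test kept 8 of the 13 calls and lost MT-CYB, MT-ND3, MT-ND4L, MT-ND5 and MT-ND6. Without NC 1, without NC 3 or without LINC00862 1, it kept 10 and lost MT-CYB, MT-ND5 and MT-ND6. On log2(FPKM + 1) with limma-trend, only MT-ND1 passed, although the 13 fitted values kept their sign.

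The other transcripts of the mitochondrial genome rose too. The 24 tRNA and rRNA rows were all higher in LINC00862 (24 of 24 called, median log2 fold change 1.97). Across all genes tested, 34.4% were called higher, with a median of 0.11. Together the 24 rows took 0.634%, 0.904% and 0.590% of counts in NC and 3.20%, 3.22% and 4.95% in LINC00862. MT-RNR2, the large rRNA, had 4246, 6543 and 4004 CPM in NC and 28529, 27584 and 47362 in LINC00862, a log2 fold change of 2.81 against 1.52 for MT-RNR1, the small rRNA. The largest rises of the list were MT-TM, the methionine tRNA next to MT-ND2, at 1.75, 2.37 and 1.34 CPM in NC and 39.7, 42.5 and 74.6 in LINC00862 (log2 fold change 4.84), and MT-TD, the aspartate tRNA next to MT-CO2, with a log2 fold change of 4.57. The smallest was MT-TG, the glycine tRNA between MT-CO3 and MT-ND3, at 0.94. Median log2 fold changes were 2.63 for the 14 tRNA rows on the plus strand and 1.74 for the 8 on the minus strand. Reads in tRNA rows may lie in uncut precursors or in mature tRNAs, which the counts do not separate, and rows on opposite strands cannot be told apart if the counting ignored strand.

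**Figure D2:**
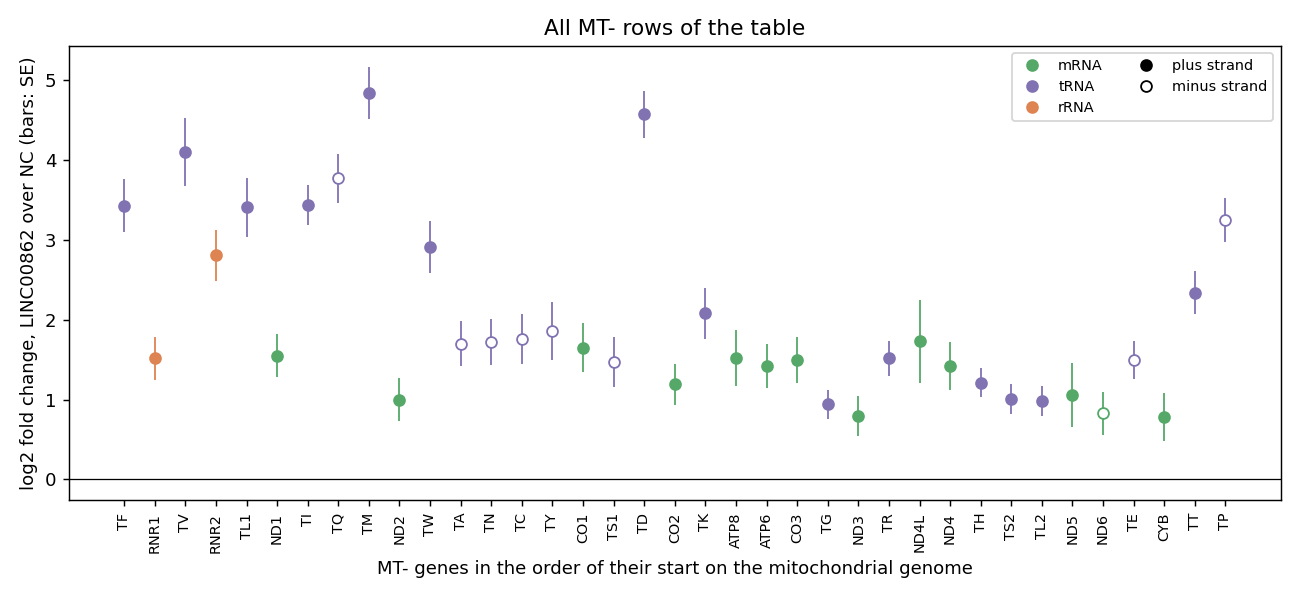
Log2 fold change (LINC00862 over NC, bars are standard errors) of the 37 MT- rows in the order of their starts on the mitochondrial genome. Green is mRNA, purple tRNA and orange rRNA, filled circles are the plus strand and open circles the minus strand. Every row lies above 0, from 0.78 for MT-CYB to 4.84 for MT-TM.

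Among the nuclear genes, complex IV had the highest median log2 fold change, 1.00, with 8 of 13 tested members higher and 1 lower. Complex II followed with 0.71 (3 of 4 higher), complex I with 0.35 (14 of 37 higher, 5 lower), complex III with 0.31 (4 of 9 higher, none lower and none fitted below 0) and complex V with 0.08 (4 of 18 higher, 1 lower). The median of complex V lay between -0.15 and 0.29 over the alternatives, so that its sign depends on the setting. Without NC 1 the medians of complexes I and III were 0.18 and 0.06, and without NC 3 they were 0.51 and 0.58, and 10 members of complex I and 5 of complex V were lower without NC 1. These counts stand beside 34.4% higher and 29.8% lower over all genes tested. The differences between complexes were not tested.

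**Figure D3:**
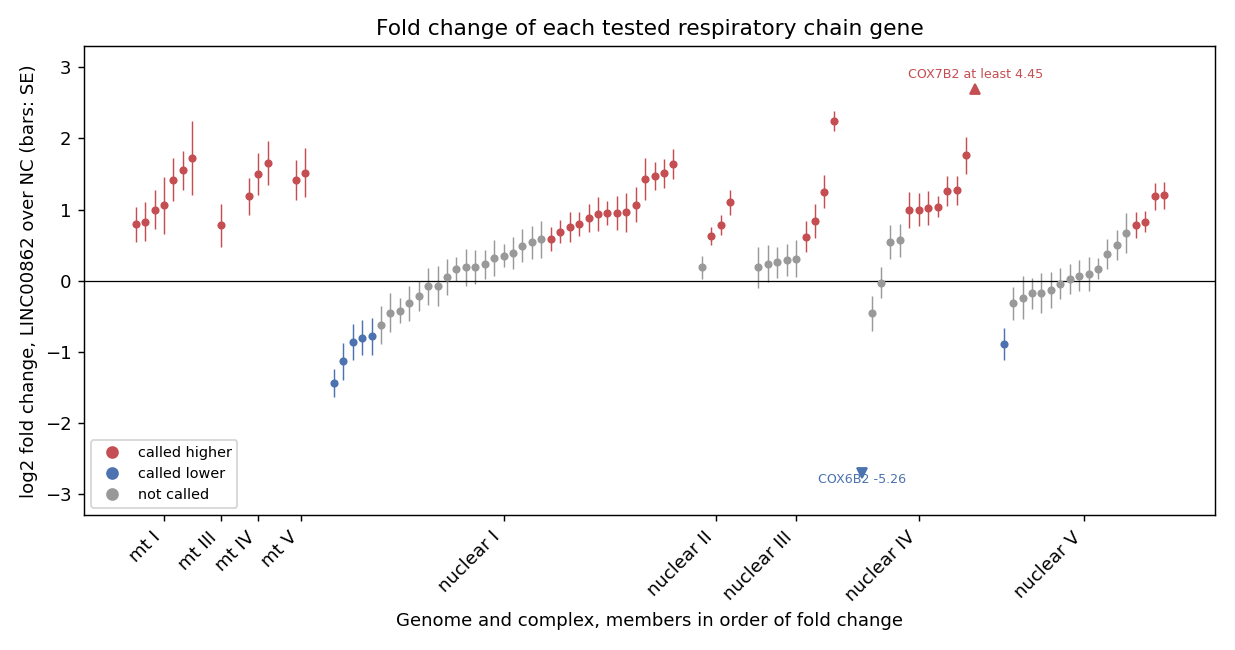
Log2 fold change (LINC00862 over NC, bars are standard errors) of each of the 94 tested members, by genome and complex and in rising order within each. Red was called higher, blue lower and grey neither. COX6B2 (-5.26) and COX7B2 (at least 4.45, from the count floor) lie outside the axis and are drawn at its edge. The mitochondrial genes all lie above 0, and the nuclear genes of complexes I and V spread to both sides.

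In complex I the catalytic core and the accessory subunits were described apart. Of the 7 nuclear core subunits, which hold the NADH site and the iron-sulfur chain and were grouped with their values known, 6 were higher, 0 lower, and the median log2 fold change was 0.95, while the other 30 tested members had 8 higher, 5 lower and a median of 0.19. The values of these 30 depended on single NC libraries, with 9 higher, 10 lower and a median of 0.01 without NC 1, and 11, 3 and 0.36 without NC 3, while the core median lay between 0.85 and 1.21 when each library was left out. NDUFV1, which binds NADH and FMN, had 115, 158 and 201 CPM in NC and 521, 526 and 431 in LINC00862, with a log2 fold change of 1.64 (SE 0.21, edgeR adjusted p = 0.000152). NDUFV2, its iron-sulfur partner, had 78.1, 111 and 119 CPM in NC and 297, 250 and 331 in LINC00862, with a log2 fold change of 1.51. The groups were well apart for both. NDUFS1, NDUFS7 and NDUFS8 rose by similar amounts, with log2 fold changes of 0.95, 0.96 and 0.94, and NDUFS3, at 0.39, did not pass.

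Among the accessory subunits NDUFA5, a subunit of the peripheral arm, went from 45.7, 65.6 and 45.3 CPM to 132, 129 and 173 (log2 fold change 1.47). NDUFS6, a zinc-binding subunit named for its promoter and its value, went from 38.0, 66.6 and 97.1 CPM to 180, 173 and 189 (1.43). NDUFB6, of the membrane arm, fell from 42.6, 67.7 and 66.9 CPM to 22.8, 19.5 and 23.0, with a log2 fold change of -1.44 (SE 0.20, edgeR adjusted p = 0.000231). NDUFS5 fell from 120, 227 and 256 CPM to 93.2, 82.4 and 99.7 (-1.13), and NDUFB8 from 61.0, 110 and 128 to 54.4, 52.9 and 57.0 (-0.86). In both genes NC 1 lay close to the LINC00862 libraries and the other NC libraries lay well above them. NDUFA2 and NDUFA11, named because they complete the 5, had log2 fold changes of -0.80 and -0.78, and their groups overlapped through NC 1. Both calls were lost with upper quartile scaling and without NC 2, NC 3, LINC00862 1 or LINC00862 2, and that of NDUFA11 also with the replicate number as a block and without LINC00862 3. Beside 34.4% higher and 29.8% lower over all genes tested, the 11 NDUFB genes, all of the membrane arm, had 2 higher and 2 lower. Their median was -0.21, which was 0.01 with upper quartile scaling. Without NC 1, 6 of the 11 were lower and the median was -0.38.

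Succinate dehydrogenase, complex II, has no mitochondrially encoded subunit. SDHA, its flavoprotein, had 311, 344 and 388 CPM in NC and 824, 816 and 599 in LINC00862, with a log2 fold change of 1.10 (SE 0.18, edgeR adjusted p = 0.000543). SDHA has near-identical pseudogene copies that may share its reads. The membrane anchors SDHC (80.7, 86.9 and 86.4 CPM against 138, 127 and 128) and SDHD (67.9, 73.6 and 62.1 CPM against 114, 110 and 127) had log2 fold changes of 0.63 and 0.78 without overlap. SDHB, the iron-sulfur subunit, overlapped between the groups (75.9, 85.4 and 102 CPM against 107, 105 and 88.5) and did not pass.

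UQCRC2, a core protein of complex III on chromosome 16 (chr16:21953288-21973957), had the largest rise of its complex. It had 129, 142 and 133 CPM in NC and 672, 644 and 599 in LINC00862, with a log2 fold change of 2.25 (SE 0.14, edgeR adjusted p = 1.63e-06). UQCRFS1, the Rieske iron-sulfur protein, went from 85.9, 121 and 152 CPM to 322, 301 and 232 (1.25). UQCRB, a quinone-binding subunit, went from 177, 318 and 317 CPM to 473, 425 and 559 (0.84). All 3 rose without overlap. UQCRQ, UQCRH and the near-identical UQCRHL, whose reads cannot be separated with certainty, had log2 fold changes of 0.24, 0.26 and 0.19 and did not pass.

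Complex IV carries tissue and testis isoforms of several subunits, which are given beside their common forms. COX4I1, the ubiquitous subunit 4, had 97.8, 165 and 210 CPM in NC and 561, 534 and 507 in LINC00862, with a log2 fold change of 1.76 (SE 0.26, edgeR adjusted p = 0.000294). COX5A, which sits beside it, went from 86.3, 121 and 148 CPM to 303, 270 and 285 (1.27), and COX6A1 from 119, 191 and 209 CPM to 412, 415 and 414 (1.26). The LINC00862 libraries agreed closely with one another for these genes, and the NC libraries spread with NC 1 lowest.

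COX6B2, a testis form of subunit 6B that tumour cells can express, had 330, 407 and 435 counts in NC and 20, 0 and 9 in LINC00862, a log2 fold change of -5.26 (SE 0.76, edgeR adjusted p = 0.000275). Its ubiquitous counterpart COX6B1 moved the other way, from 80.2, 134 and 164 CPM to 259, 230 and 279 (log2 fold change 1.02). COX7B2, a testis form of subunit 7B, had no count in the 3 NC libraries and 88, 58 and 50 counts in LINC00862. Against a floor of 3 counts in each NC library it was at least 21.9-fold higher, and its level in LINC00862 stayed at 1.10 CPM ± 0.217 (SD, n = 3). COX7B, the common form, went from 59.6, 108 and 109 CPM to 193, 165 and 196 (log2 fold change 1.00). COX8A (-0.46) and COX7A2 (-0.03) overlapped between the groups and did not pass, and the sign of COX7A2 depended on the scaling.

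In complex V, ATP5F1B, ATP5F1C, ATP5MC3 and ATP5PO, a stator subunit (log2 fold change 0.78), rose, and most other members lay around 0. ATP5F1B, the catalytic beta subunit, had 683, 725 and 801 CPM in NC and 1885, 1887 and 1313 in LINC00862, with a log2 fold change of 1.20 (SE 0.19, edgeR adjusted p = 0.000464). ATP5F1C, the gamma subunit of the rotor shaft, went from 151, 200 and 178 CPM to 306, 304 and 329 (0.83). The c-ring is made from identical mature proteins encoded by ATP5MC1, ATP5MC2 and ATP5MC3. ATP5MC3 rose from 143, 202 and 231 CPM to 467, 447 and 399 (1.19), whereas ATP5MC1 (-0.13) and ATP5MC2 (-0.04) overlapped between the groups and changed sign with the scaling. ATP5IF1, which inhibits the hydrolysis of ATP by the enzyme, was the member that fell, from 52.7, 79.0 and 94.2 CPM to 42.4, 35.3 and 44.0 (-0.89). ATP5PD (-0.32) and ATP5ME (-0.24), both of the peripheral or membrane part, did not pass.

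The NC libraries kept a common order over the nuclear members. NC 1 was the lowest NC library for 78 of the 81 nuclear members and for 43.0% of all genes tested, and NC 3 was the highest for 66. Without NC 1, 17 nuclear members were lower in place of 7, and those 17 included all 7. In LINC00862 no library was lowest or highest for more than 43 members. The ratio of NC 3 to NC 1 was related to transcript length, with a Spearman correlation across genes of -0.31 over the 81 members and -0.35 over 14845 tested genes with a length, in which the points share the same libraries. The log2 fold change between the groups had correlations with length of 0.14 and 0.00 over the same sets. The part of this length relation in the results was not tested.

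Of the 67 promoters, 14 (20.9%) held the NRF1 motif, against 3.68% of the 27305 genes with a window and 5.61% of the 12709 of these that were tested. The GABPA motif was in 12 (17.9%, against 4.95% and 8.48%). The YY1 motif was in 9 (13.4%, against 2.14% and 3.95%) and the ESRRA motif in 1 (1.49%, against 0.432% and 0.291%), SDHD. Among the 14 tested members with the NRF1 motif, 6 were higher and 0 lower, with a median log2 fold change of 0.54, and among the 53 without it 20 were higher and 6 lower, with a median of 0.31. For GABPA the medians were 0.25 with the motif and 0.38 without. Of all genes tested, 34.4% were higher and 29.8% lower, with a median of 0.11. The difference between members with and without a motif was not tested, and a match in these letters is not a bound site.

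The genes that regulate mitochondrial biogenesis moved in opposite directions. PPARGC1A, the coactivator PGC-1alpha that drives respiratory genes in liver and muscle, had 3.61, 3.21 and 2.63 CPM in NC and 487, 476 and 449 in LINC00862, a log2 fold change of 7.22 (SE 0.20, edgeR adjusted p = 2.94e-08). ESRRG, an orphan nuclear receptor that it coactivates, had 6, 10 and 0 counts in NC and 1664, 1683 and 1511 in LINC00862. ESRRA, the related receptor, went from 23.1, 32.7 and 32.6 CPM to 176, 182 and 165 (log2 fold change 2.57). These 3 were the rises among the 12 regulators listed, 4 of which fell, and the median was -0.33. Over all genes tested, 34.4% were higher and 29.8% lower. MYC, a general driver of growth that also acts on mitochondrial genes, fell from 523, 539 and 531 CPM to 223, 224 and 241 (-1.21). PPRC1, a relative of PPARGC1A, fell as well (-0.82). GABPA fell from 41.9, 31.9 and 23.9 CPM to 19.4, 20.4 and 19.5 (-0.72). GABPA and ATP5PF overlap on opposite strands, so that their reads cannot be told apart if strand was ignored. NRF1 stood at 16.1, 15.4 and 20.2 CPM in NC and 14.1, 15.2 and 13.2 in LINC00862 (-0.29, edgeR adjusted p = 0.179).

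The genes that copy and transcribe mitochondrial DNA moved in both directions, with 6 of 18 genes higher, 8 lower and a median log2 fold change of -0.42. Over all genes tested, 34.4% were higher and 29.8% lower, with a median of 0.11. TFAM, which packages mitochondrial DNA and opens its promoters, fell from 76.4, 62.2 and 53.7 CPM to 38.2, 40.8 and 40.9 (-0.68, edgeR adjusted p = 0.00486). POLRMT, the mitochondrial RNA polymerase, rose from 31.0, 36.3 and 43.5 CPM to 58.3, 66.7 and 58.5 (0.73), and TFB2M, its initiation factor, rose from 18.9, 19.6 and 16.3 to 36.5, 41.5 and 30.7 (0.99). The largest falls were TFB1M, an rRNA methyltransferase (-2.37), and MGME1, a nuclease of mitochondrial DNA replication (-1.84), and the largest rises were MTERF2 (1.26) and LIG3, a DNA ligase (1.19).

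Among 18 genes of mitochondrial RNA processing and stability, 8 were higher and 5 lower (3 without LINC00862 2 or without LINC00862 3), with a median of 0.33. The shares over all genes tested were 34.4% higher and 29.8% lower. LRPPRC, which binds and stabilises mitochondrial mRNAs, rose from 232, 186 and 189 CPM to 452, 489 and 351 (1.09, edgeR adjusted p = 0.000526). SLIRP, its partner, fell from 33.6, 61.8 and 67.1 CPM to 25.3, 25.1 and 23.5 (-1.14). FASTKD3 (1.58) and FASTKD1 (1.13) were the largest rises, and HSD17B10, a subunit of mitochondrial RNase P, fell (-0.99). The 78 genes with MRPL or MRPS symbols, taken as mitoribosomal by name, had 19 higher, 30 lower and a median of -0.22. These counts stand beside 34.4% higher and 29.8% lower over all genes tested. MRPS30 (3.73) and MRPS21 (2.18) were the largest rises, and MRPS18C (-2.03) and MRPL18 (-1.84) the largest falls. The excess of falls in this list depended on the NC libraries, with 18 higher, 42 lower and a median of -0.38 without NC 1, and 23, 23 and -0.07 without NC 3.

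**Figure D4:**
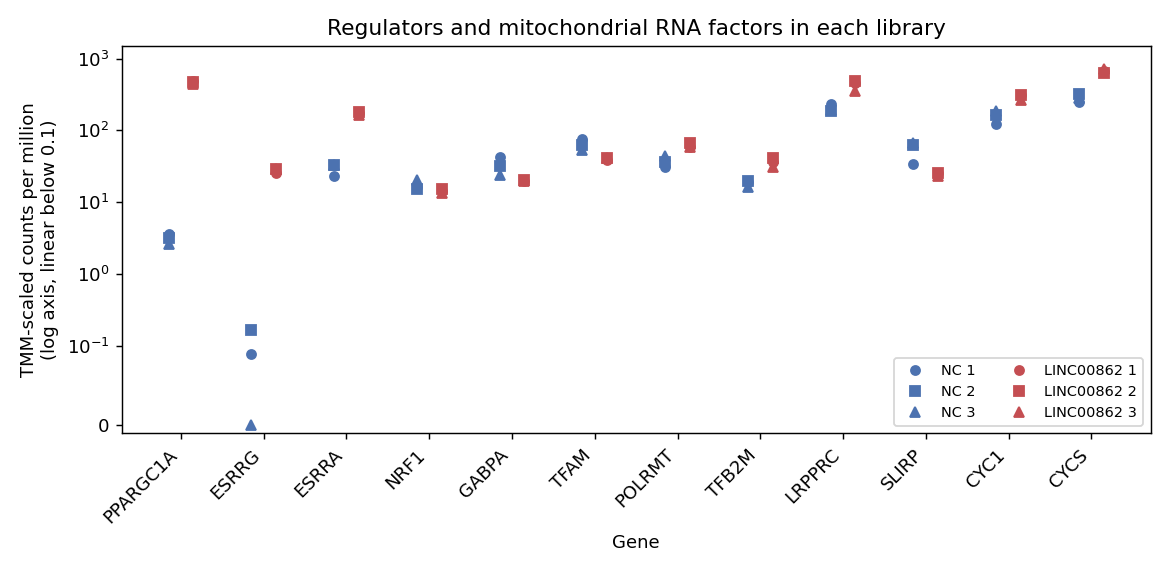
Levels of 12 regulators and mitochondrial RNA and electron carrier genes in each library, in TMM-scaled CPM on an axis that is linear below 0.1 and logarithmic above. Blue is NC, red is LINC00862 and marker shapes are replicates 1 to 3. PPARGC1A, ESRRG and ESRRA stand far apart between the groups, and NRF1 does not.

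Other genes of the chain and its helpers were read from lists of their own. Of the genes that the symbol rule leaves out, 4 were listed with results known, and all 4 were higher. CYC1, the cytochrome c1 of complex III, went from 121, 164 and 184 CPM to 307, 309 and 265 (log2 fold change 0.91). CYCS, cytochrome c itself, went from 247, 320 and 283 CPM to 662, 631 and 712 (1.24). NDUFAB1, the acyl carrier protein, had a log2 fold change of 0.80. NDUFA4L2, a hypoxia-inducible relative of NDUFA4, had 3.80, from 16, 26 and 31 counts to 340, 346 and 283. Of 56 assembly factors 19 were higher and 15 lower (median 0.14, or -0.02 with library size scaling), and 9 were lower without NC 2 or without LINC00862 2. The counts of 19 and 15 lay near the shares of all genes tested, 34.4% higher and 29.8% lower. TMEM70, needed for complex V, had a log2 fold change of 1.99 and NDUFAF4, needed for complex I, of 1.72, whereas TMEM242 (-2.65) and ACAD9 (-1.18) fell. Of 21 other mitochondrial proteins 13 were higher and 3 lower (median 0.79), with the citric acid cycle enzyme IDH3A (1.92) the largest rise and the prohibitin PHB (-1.05) and the protease subunit CLPP (-0.86) the largest falls. In bulk RNA, more mitochondrial RNA in each cell and more cells rich in mitochondria cannot be told apart.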

How the data were processed

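RNA sequencing of 6 libraries, 3 for each group, was analysed, with groups and replicate numbers from the sample labels. The deposited count of reads for each gene is unnormalized. The authors also deposited FPKM, scaled by length and mapped fragments. The length used for each gene is not given in the sources used here. Per the submitters' processing notes, cutadapt 1.9, HISAT2 2.0.4, UMI-tools, StringTie 1.3.4d, edgeR, DESeq2 and hg38 were used. Whether strand was used in counting is not given in the sources used here. Adapters carried molecular identifiers, and how they were collapsed is likewise not given. The authors' own fold changes and q values were not used.

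Counts of all 20741 genes kept by filterByExpr were fitted with edgeR 4.0.16 (TMM, quasi-likelihood test, Benjamini-Hochberg adjustment, false discovery rate 0.05) in R 4.3.3. Alternatives were DESeq2 1.42.0, limma-trend 3.58.1 on log2(FPKM + 1) and log2(FPKM + 0.1), other scalings and filters, a replicate block, a false discovery rate of 0.01 and leaving out each library. Same-numbered libraries of the groups did not deviate together, so numbers were not taken to pair them. The floor for a gene without reads was 3 counts for each library and covers counting error only. Python 3.11.15 with pandas 2.3.3 served for the tables.

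Members and lists were chosen with earlier results of these data known. Named genes were the 13 mitochondrial genes, the 3 largest fitted rises and 3 largest falls of each nuclear complex, the paired isoforms, the SDH genes, the 2 largest rises and 2 largest falls of each list, and a few set regulators. The values of some single genes are not reported here. Promoters and motif shares came from RefSeq (GRCh38.p14). Nuclear gene coordinates are those of the deposited table, and 25 of the 82 are the same in GENCODE 29.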

Additional observations from a re-analysis of the deposited data

How the results depend on the processing

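The median log2 fold change of the mitochondrial genes, that of the nuclear genes and their difference kept their direction under all alternatives run. The difference lay between 0.69 and 1.16 when each library was left out. A scaling moves both medians nearly alike, so that the scalings are no check on the difference. The ratio of mitochondrial to nuclear counts does not depend on scaling or on the fit. Since its groups did not overlap, leaving out a library could not reverse it. The number of mitochondrial genes higher was 1 by limma-trend on log2(FPKM + 1), 1 on log2(FPKM + 0.1), 7 at a false discovery rate of 0.01, and 8 to 13 when each library was left out, with 8 without LINC00862 3. The number of nuclear genes lower was 4 at a false discovery rate of 0.01 and 5 to 17 when each library was left out, with 17 without NC 1. With a replicate block, 10 mitochondrial genes were higher, 34 nuclear genes were higher and 6 lower, with medians of 1.41 and 0.44, and same-numbered libraries had correlations of their deviations from -0.05 to -0.01. Among the 94 named genes, the log2 fold changes that changed sign belonged to 5 genes that did not pass the test. Members that were not named are left out of this count, and the median of the NDUFB genes also changed sign with upper quartile scaling. COX7A2 was 0.02 by DESeq2, 0.18 with upper quartile scaling, 0.00 with the replicate block and -0.23 to 0.13 when each library was left out. ATP5MC2 was 0.01, 0.17, 0.01 and -0.25 to 0.17 under these settings. ATP5MC1 was 0.08 with upper quartile scaling and -0.37 to 0.17 when each library was left out, ATP5ME was -0.54 to 0.02 and UQCRQ -0.02 to 0.46. The causes were not tested. Over 94 named genes and 1410 alternative values, 1319 kept direction and call, 70 lost the call, 5 gained it and 16 changed sign. With library size only the median of all genes was -0.05 and rises were 48.5% of all calls, with upper quartile scaling 0.32 and 60.4%, and with TMM 0.11 and 53.6%. The 3 libraries for each group limit the precision.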
